A study of Homo sapiens with 4 samples.

Results

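AC010761.2 (ENSG00000265073) is an antisense transcript that lies on the minus strand of human chromosome 17q11.2, with 729 of its 754 exonic bases within the last exon of NEK8, which is read from the plus strand. It was studied here together with 8 neighbouring protein-coding genes, TLCD1, NEK8, TRAF4, SDF2, SUPT6H, ERAL1, FLOT2 and DHRS13, so that 9 of the 78686 listed genes were considered. The antisense transcript was selected on its own counts in these 4 libraries, which nearly vanished in the knockout, so its difference between the groups is given as a description without a test. The 8 neighbours were listed by their position.

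The libraries came from HEK293, a human embryonic kidney cell line, and measured polyadenylated RNA. The 2 WT libraries were made from unedited cells, and the 2 KO libraries from cells edited at HEMK1 with Cas9, with no other treatment in either group. HEMK1 encodes a methyltransferase of the mitochondrial release factors, and the series asked which transcripts differ when it is edited. Plasmids carrying Cas9 and different guides were pooled for transfection, and single cells positive for mCherry were sorted and expanded. The KO libraries are from 1 such clone, 1F8, so that the edit and other properties of this clone cannot be told apart. The labels call the libraries of a group biological replicates without saying that they came from separate cultures, so the p-values measure only the spread between these libraries.

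The libraries held between 2476471 and 3202039 counts on genes, and between 20530 and 21639 genes had a count. For HEMK1 itself the WT replicates gave 6 and 9 counts and the KO replicates 1 and 7, so the groups overlapped and these counts are too few to check the edit. Of 8 markers expressed by HEK293 cells, 7 had counts and PAX2 was at 0. Their summed level was 317.0 to 318.6 CPM, which are counts scaled to a common library size, in WT and 232.0 to 261.1 CPM in KO. Of 4 keratinocyte markers KRT1, KRT5 and KRT14 were at 0, and KRT10 stood at 11.6 to 12.1 CPM in WT and 9.37 to 13.0 CPM in KO. Of 3 hepatocyte markers ALB and TTR were at 0, and APOA1 had 0.350 CPM in KO replicate 1 and 0 elsewhere. Of 4 fibroblast markers COL1A2 and DCN were at 0, and the other 2, led by LUM, summed to 18.0 to 22.6 CPM in WT and, higher in both libraries, to 27.2 to 33.3 CPM in KO. The 7 blood and immune markers, led by HBB, together reached 0 CPM in WT replicate 1, 0.374 in WT replicate 2, 3.15 in KO replicate 1 and 12.2 in KO replicate 2. The part of these markers in the differences described here was not tested.

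Antisense transcripts overlap a gene on the opposite strand, and some are known to act on the transcription, splicing or stability of RNA from that gene, while many have no known function. NEK8 encodes a kinase of the NIMA family that sits in the inversin compartment of the primary cilium, and variants that impair it cause nephronophthisis, a cystic kidney disease. Its neighbours at this locus have unrelated textbook roles in membranes, signalling, transcription and mitochondria.

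In the GENCODE 29 annotation of GRCh38, AC010761.2 spans chr17:28732963-28743102 on the minus strand. Its merged exons cover 754 bases, of which 729 lie inside the last exon of NEK8, at positions 28741959 to 28743455 on the plus strand. A 536-base block (28742230 to 28742765) and a 193-base block (28742910 to 28743102) make up this shared stretch. The third and shortest block lies in an intron of NEK8.

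**Figure D1:**
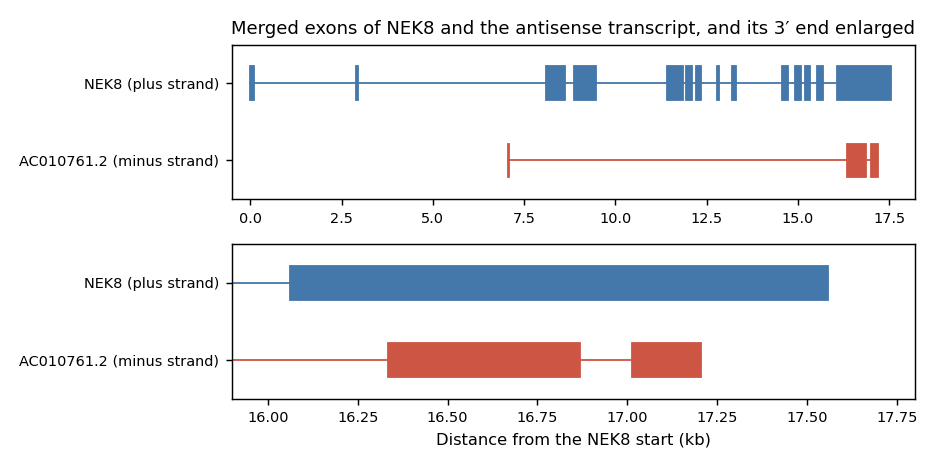
Merged exons (boxes) of NEK8 and of AC010761.2 by distance from the annotated NEK8 start in kb, whole above and with the 3′ end of NEK8 enlarged below. The 536-base and 193-base blocks of the antisense transcript sit inside the last NEK8 exon, and its shortest block lies in an intron.

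The promoters that flank the antisense transcript are those of NEK8 and of TRAF4, the next gene beyond its 5′ end, and the 250 bases before their RefSeq starts (GRCh38.p14, plus strand) are shown for that reason. They span chr17:28728538-28728787 for NEK8 and chr17:28743761-28744010 for TRAF4. The RefSeq start of NEK8 lies in the second of its GENCODE 29 exons (28728780 to 28728860), downstream of the GENCODE start at 28725897. Capitals mark the GC box, GGGCGG, on either strand.
NEK8 promoter: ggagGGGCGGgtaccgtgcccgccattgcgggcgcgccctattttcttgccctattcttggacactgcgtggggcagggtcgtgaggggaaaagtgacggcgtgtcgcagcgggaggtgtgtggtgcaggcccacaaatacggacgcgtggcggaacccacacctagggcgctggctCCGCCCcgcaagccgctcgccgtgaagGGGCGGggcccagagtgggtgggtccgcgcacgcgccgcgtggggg
TRAF4 promoter: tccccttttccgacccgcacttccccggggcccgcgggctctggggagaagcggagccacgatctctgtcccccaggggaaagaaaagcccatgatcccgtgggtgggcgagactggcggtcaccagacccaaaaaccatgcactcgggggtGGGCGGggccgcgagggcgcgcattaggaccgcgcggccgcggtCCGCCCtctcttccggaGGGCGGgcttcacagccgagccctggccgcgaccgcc

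Each of these windows held 3 GC boxes and no CCAAT or TATAAA on either strand, and no GC box overlapped another motif. RefSeq promoters were matched for 8 members, with 10 windows. Of these windows, 7 held a GC box, 0 held CCAAT and 1, of TLCD1, held TATAAA. Among 35097 RefSeq promoters of the same length, 42.6% held a GC box, 32.0% CCAAT and 10.7% TATAAA.

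AC010761.2 was nearly absent from the KO clone. It had 34 counts in WT replicate 1, 44 in WT replicate 2, 2 in KO replicate 1 and 0 in KO replicate 2. Both WT libraries were high and both KO libraries low, with no overlap. In bulk RNA, fewer cells that make the transcript and less of it per cell cannot be told apart. Scaled by library size with TMM normalisation, the level was 15.1 ± 1.55 CPM in WT and 0.344 ± 0.487 CPM in KO (SD, n = 2 each). The KO over WT ratio of summed counts was 0.0219, with an exact 95% binomial interval of 0.00261 to 0.0818, which is 45.7-fold lower (12.2 to 384) in KO. This interval, like the others here, covers counting error only. In KO replicate 2 alone, where the count was 0, the level was at least 15.8-fold lower than in WT, against a floor of 3 counts in that library. The authors' deposited table gave the antisense transcript a log2 fold change of -5.50 (SE 1.20) at a base mean of 21.3. The transcript passed the filter on low counts through the WT libraries alone.

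**Figure D2:**
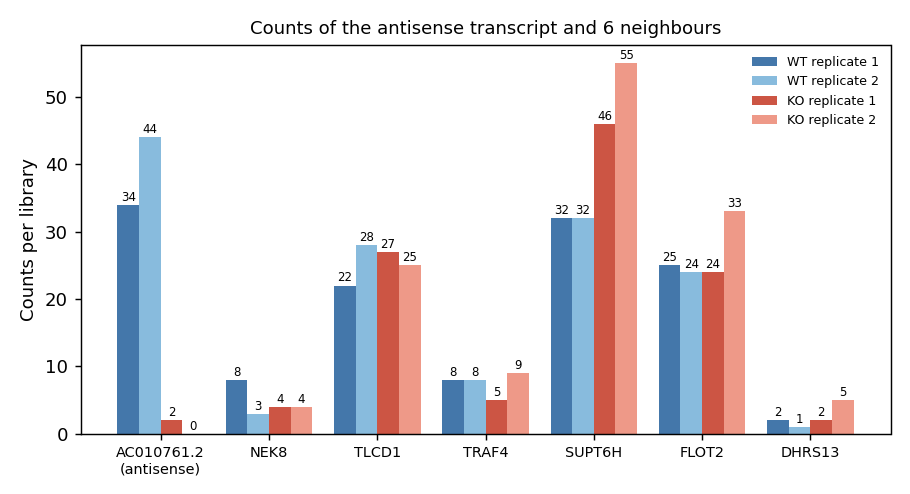
Counts per library (bars from 0, linear axis) for AC010761.2 and 6 of its neighbours, with WT replicates in blue and KO replicates in red. AC010761.2 falls from 34 and 44 counts to 2 and 0, while NEK8 has 8 and 3 counts in WT and 4 and 4 in KO.

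NEK8, whose last exon holds the antisense transcript, had few counts in every library. WT replicate 1 had 8 counts and WT replicate 2 had 3, against 4 in each KO library, so the groups overlapped. Its level was 2.19 ± 1.54 CPM in WT and 1.33 ± 0.0725 CPM in KO (SD, n = 2 each). The KO over WT ratio of counts was 0.621, with a counting interval of 0.217 to 1.70. NEK8 did not pass the filter and received no call. Its log2 fold change without the filter was -0.68 ± 0.86 (SE). A change in NEK8 as large as that of the antisense transcript lies outside its counting interval, whereas a fall or a rise within that interval was not detectable at this depth. The interval leaves out the spread between libraries, so it cannot by itself exclude a change of either size.

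Per kilobase of merged exons, the antisense transcript stood at 18.5 and 21.4 CPM per kb in the WT libraries and NEK8 at 0.743 and 0.249 CPM per kb. In the KO libraries the antisense transcript stood at 0.913 and 0 CPM per kb and NEK8 at 0.312 and 0.288 CPM per kb. Of the counts given to the pair, AC010761.2 held 81.0% (Clopper-Pearson interval 65.9 to 91.4%) in WT replicate 1 and 93.6% (82.5 to 98.7%) in WT replicate 2. It held 33.3% (4.33 to 77.7%) of 6 pair counts in KO replicate 1 and 0 of 4 (0 to 60.2%) in KO replicate 2. With the floor of 3 counts in place of 0, the share in KO replicate 2 could be up to 75%. Summed over libraries, the share was 87.6% (79.0 to 93.7%) in WT and 20.0% (2.52 to 55.6%) in KO.

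What the antisense counts can hold depends on how strand was treated. The NEB low-input kit named in the labels does not mark the strand of the RNA, and the strand setting of the counting is not given in the sources used here. Among genes annotated as antisense, 64 had at least 90% of their exons inside those of an opposite gene with 500 or more counts. Of these, 55 (85.9%) had 10 or more counts, with a median of 203.5 counts over the 4 libraries and a median density per kb of 203% of that of the opposite gene. Among 362 antisense genes with under 10% inside such exons, 114 (31.5%) had 10 or more counts, with a median of 2 counts and 1.41% of the opposite gene's density. In the median, then, a contained antisense gene was counted as densely as the gene around it or more so. In such a table, reads from NEK8 and from AC010761.2 over the 729 shared bases cannot be told apart by their strand. Among the neighbours, only FLOT2 had no exonic base within exons of the other strand. Such bases made up 1221 of 2944 in DHRS13, 777 of 4596 in TRAF4 and 526 of 3332 in SDF2, and the same limit holds for these counts.

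Of the local pairs, the most deeply counted kept a near constant ratio across the 4 libraries. AC010761.1, an antisense gene in which 155 of 899 exonic bases lie in exons of the ribosomal protein gene RPL23A, had 5692 and 4704 counts in WT and 6015 and 7015 in KO. These were 76.7% and 75.8% of the RPL23A counts in WT and 77.9% and 76.1% in KO. AC010761.5, which lies wholly inside exons of TRAF4, had 2 and 2 counts in WT and 6 and 4 in KO, which were 25%, 25%, 120% and 44.4% of the TRAF4 counts. The other local pairs, with 15 to 43 counts on the antisense gene, also varied between libraries. AC002094.2 had 35.3% to 100% of the counts of TMEM199, AC005726.4 had 5.26% to 44.4% of those of ALDOC and AC005726.2 had 5.56% to 40% of those of BLTP2.

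The pair of AC010761.2 and NEK8 was set beside 120 other pairs in which a gene lay at least 90% inside exons of the other strand and had 40 or more counts. In WT the contained gene held a median of 24.3% of the pair's counts, 90% of pairs lay below 43.6%, and 8 pairs lay above 50%. The share of 87.6% for AC010761.2 was exceeded in 5 pairs, among them AC093512.1 with ALDOA (89.5%). ALDOA had only 2 counts, both in WT replicate 1, and 2 annotated genes have exons opposite AC093512.1, so that share is uncertain. In 3 of the 5 pairs the surrounding gene had 0 counts. AC010761.2 itself met the limit of 40 counts through the WT libraries, with 78 counts there and 2 in KO. It was chosen on these counts, so its place among the pairs in WT is a description only. From WT to KO, the share moved by less than 10 percentage points in 110 of the 120 pairs, and the range was -18.4 to 32.9 points. The pair with the most counts, AC093484.3 with the ubiquitin gene UBB, held 42.9% in both groups. The corresponding change for AC010761.2, -67.6 points, rests on the difference for which it was chosen. NEK8 is the 1 gene of GENCODE 29 with exons opposite those of AC010761.2. Listed genes that GENCODE 29 does not place, 21398 in number with 2.69% of all counts, were not analysed here for overlap.

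**Figure D3:**
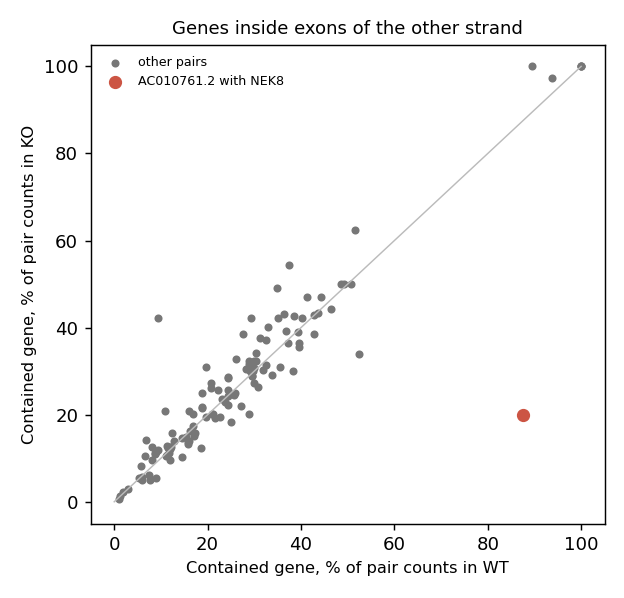
Share of a pair's counts held by the contained gene, in percent, in WT (horizontal) and KO (vertical), for AC010761.2 with NEK8 (red) and 120 other pairs (grey) with the line of equality. AC010761.2 lies at 87.6% in WT and 20.0% in KO, and 110 of the other pairs lie within 10 points of the line. AC010761.2 was chosen for its difference between the groups, so its distance from the line is no test. Its KO share rests on 10 pair counts (Clopper-Pearson interval 2.52 to 55.6%).

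None of the 8 neighbours changed at an adjusted p under 0.05. Of the 10670 genes tested with edgeR's quasi-likelihood test, 5 were higher (0.0469%) and 30 lower (0.281%) in KO, together 0.328% of those tested. TLCD1, SDF2, SUPT6H, ERAL1 and FLOT2 passed the filter, while NEK8, TRAF4 and DHRS13 did not. Of the 5 that passed, 0 were called by edgeR or by DESeq2, 0 had an unadjusted p under 0.05, and the smallest edgeR adjusted p was 0.723. Over all tested genes, 900 (8.43%) had an unadjusted p under 0.05, a share at which 0 of 5 says little. Over the 8 neighbours, 3 log2 fold changes were above 0 and 5 below, with a median of -0.09, beside a median of 0.01 over all tested genes. For 3 of the 8 (TRAF4, SUPT6H and ERAL1) the groups did not overlap, beside 39.2% of all tested genes.

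TRAF4 encodes an adaptor of the TRAF family with E3 ligase activity and starts 0.882 kb beyond the 5′ end of the antisense transcript. It had 8 and 8 counts in WT and 5 and 9 in KO, which gave 3.28 and 2.94 CPM in WT and 1.72 and 2.87 CPM in KO. Both KO values lay below both WT values, by a narrow gap for replicate 2. The ratio of counts was 0.747 (0.338 to 1.63), so no difference was detectable at this depth.

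TLCD1, on the minus strand across the GENCODE start of NEK8, encodes a TLC domain protein of the plasma membrane that bears on membrane fluidity. It had 22 and 28 counts in WT and 27 and 25 in KO. The groups overlapped, and the log2 fold change was -0.17 ± 0.35 (edgeR adjusted p = 0.942).

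SDF2 and SUPT6H start head to head on opposite strands. SDF2 encodes a protein of the endoplasmic reticulum that works with its chaperones, and SUPT6H encodes the histone chaperone and transcription elongation factor SPT6. SDF2 had 105.9 and 106.4 CPM in WT and 96.4 and 122.7 CPM in KO. The 2 WT libraries lay between the 2 KO libraries, with a log2 fold change of 0.04 ± 0.17 (edgeR adjusted p = 0.976). SUPT6H had 13.1 and 11.7 CPM in WT and 15.8 and 17.5 CPM in KO. Both KO libraries were above both WT libraries, but the log2 fold change of 0.42 ± 0.28 did not pass the test (edgeR adjusted p = 0.723).

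ERAL1 encodes a mitochondrial GTPase that binds the small ribosomal RNA during assembly of the mitochondrial ribosome. It had 40.2 and 37.8 CPM in WT and 30.3 and 35.4 CPM in KO. Both KO libraries were below both WT libraries, and the log2 fold change of -0.25 ± 0.21 did not pass the test (edgeR adjusted p = 0.809).

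FLOT2 encodes flotillin-2, a scaffold of membrane microdomains, and had 10.3 and 8.81 CPM in WT and 8.26 and 10.5 CPM in KO. The groups overlapped, with a log2 fold change of -0.02 ± 0.35 (edgeR adjusted p = 0.996). DHRS13, a member of the short-chain dehydrogenase and reductase family, had 2 and 1 counts in WT and 2 and 5 in KO. Its ratio of 1.99 had a counting interval of 0.455 to 11.9, and the groups overlapped.

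By mean level per length in WT, the order was SDF2 (31.9 CPM per kb), AC010761.2 (20.0), ERAL1 (16.8), TLCD1 (7.36), FLOT2 (2.86), SUPT6H (1.17), TRAF4 (0.677), NEK8 (0.496) and DHRS13 (0.202). In KO the antisense transcript stood at 0.457 CPM per kb, between TRAF4 (0.499) and DHRS13 (0.388). The WT libraries of AC010761.2 (18.5 and 21.4 CPM per kb) did not overlap with those of ERAL1 (17.4 and 16.3). The place of AC010761.2 in this order is uncertain, since it was chosen on these counts. Of its 754 exonic bases, 729 may also hold reads of NEK8. Contained antisense genes were in the median counted at 203% of the opposite gene's density, so its level per length may not be its own. Those of TRAF4 (0.715 and 0.639) lay within the range of NEK8 (0.743 and 0.249).

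**Figure D4:**
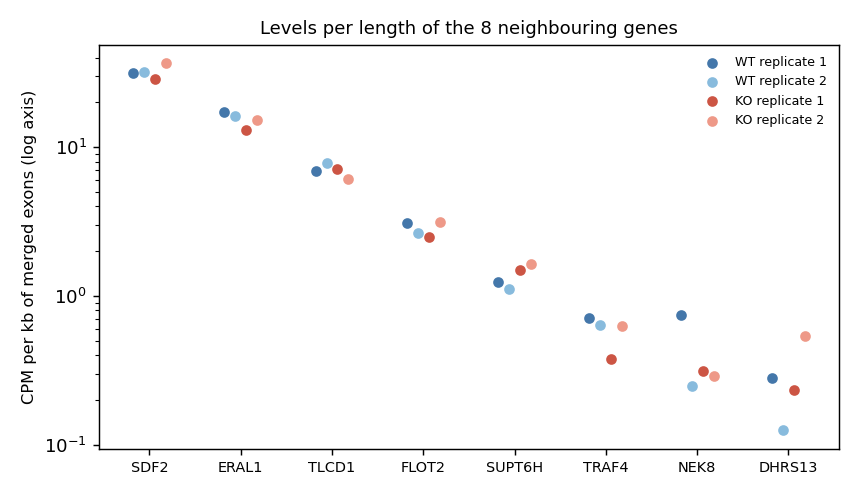
Level of each of the 8 neighbours in CPM per kb of merged exons (log axis), with 1 point per library, WT in blue and KO in red. SDF2 is highest and TRAF4, NEK8 and DHRS13, whose libraries overlap one another, are lowest, and for 5 of the 8 genes the WT and KO points overlap.

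Within 500 kb of the antisense transcript, 85 other genes were listed, 52 had a count and 22 were tested. Of these 22, 0 were called by edgeR and 0 had an unadjusted p under 0.05, beside 8.43% of all tested genes. Their median log2 fold change was 0.01, with 11 above and 11 below 0, and they ranged from -0.44 to 0.49. The smallest p-values belonged to FAM222B, TMEM97 and SUPT6H. FAM222B, on the minus strand 12.9 kb away, had 35 and 36 counts in WT and 60 and 57 in KO. Both KO libraries were higher, with a log2 fold change of 0.49 ± 0.27 (edgeR adjusted p = 0.660). TMEM97, a sterol-regulated membrane protein also known as the sigma-2 receptor, had a log2 fold change of -0.26 ± 0.16 (edgeR adjusted p = 0.708).

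**Figure D5:**
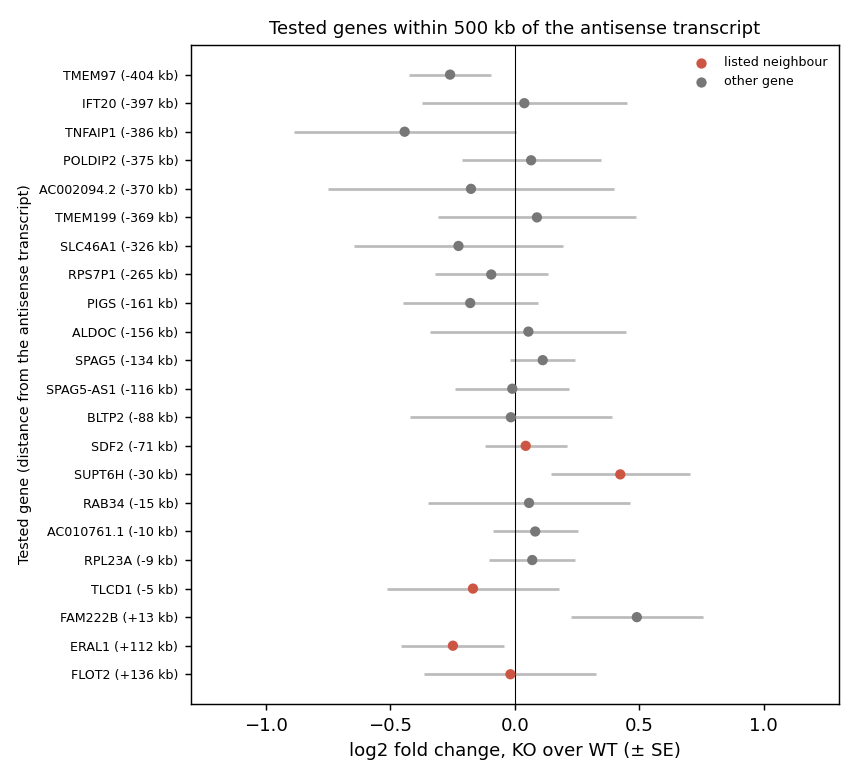
Log2 fold change (KO over WT, bars ± SE) for the 22 tested genes within 500 kb of AC010761.2, ordered by distance in kb along the chromosome, with the listed neighbours in red and other genes in grey. Values range from -0.44 to 0.49, 11 above and 11 below 0.

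Genes that work with the neighbours, or belong to their families, were taken as 9 lists with 105 symbols, of which 71 were tested. By edgeR 0 were called in either direction and 3 (4.23%) had an unadjusted p under 0.05, beside 8.43% of all tested genes, with 34 log2 fold changes above and 37 below 0 and a median of -0.01. Of 8 NEK kinases the median was 0.05, and NEK9 had the smallest p (0.32 ± 0.21, edgeR adjusted p = 0.713). Of 5 proteins of the inversin compartment and nephronophthisis the median was 0.22, led by IQCB1, a ciliary protein (0.22 ± 0.13, edgeR adjusted p = 0.704). Of 3 TRAF family genes and adaptors the median was 0.24, led by TANK, a TRAF-binding adaptor (0.36 ± 0.17, edgeR adjusted p = 0.593). Of 14 elongation partners of SUPT6H the median was 0.08, led by SKIC8 (0.34 ± 0.13, edgeR adjusted p = 0.494), a subunit of the PAF1 and SKI complexes.

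Of 10 tested genes listed for assembly of the mitochondrial ribosome, not all of them specific to its small subunit, 9 had a value below 0. Other lists also leaned to 1 side, with 2 above 0 and 7 below for flotillin and membrane scaffold genes. TRAF family genes and adaptors had 3 above and 0 below, and inversin and nephronophthisis genes 4 above and 1 below. The remaining lists were more even. Of the 10 mitochondrial ribosome genes, 0 were called, and the median was -0.16. The smallest p was that of NSUN4, a mitochondrial RNA methyltransferase (-0.32 ± 0.25, edgeR adjusted p = 0.788). Of 8 partners of SDF2 the median was 0.01, led by the chaperone HSPA5 (0.34 ± 0.16, edgeR adjusted p = 0.594). Of 9 flotillin and membrane scaffold genes the median was -0.15, led by the prohibitin PHB1 (-0.50 ± 0.28, edgeR adjusted p = 0.667). Of 8 TLC domain genes the median was -0.00148, led by the ceramide synthase CERS2 (-0.41 ± 0.21, edgeR adjusted p = 0.642). Of 6 short-chain dehydrogenases the median was -0.16, led by the retinol dehydrogenase RDH10 (-0.48 ± 0.18, edgeR adjusted p = 0.488).

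None of the other genes annotated as antisense passed the test. Of 670 that were tested, 0 were called by edgeR and 46 (6.87%) had an unadjusted p under 0.05, of which 27 had a value above 0 and 19 below. This share was not above the 8.43% of all tested genes. The median log2 fold change was 0.07. The smallest edgeR adjusted p among them was 0.139, of AC131011.1, with 2340 and 1889 counts in WT and 4026 and 4256 in KO.

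The 5 tested genes with the pattern most like that of AC010761.2 were RPS26P11, BCHE, RPS26P20, RPS20P2 and RPL7P12, by Euclidean distance between centred log2 CPM (prior count 2) over the 4 libraries. They lie on chromosomes X, 3, 2, 16 and 2. RPS26P11, at a distance of 0.583, had 25 and 24 counts in WT and 1 and 0 in KO. BCHE, which encodes butyrylcholinesterase, at a distance of 0.736, had 20 and 25 counts in WT and 0 and 0 in KO. The other 3, at 0.742 to 0.826, had 20 to 31 counts in each WT library and 0 in both KO libraries. RPS26P11, RPS26P20, RPS20P2 and RPL7P12 are processed pseudogenes of ribosomal protein genes, whose counts may be shared with near-identical copies and are uncertain.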

How the data were processed

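Polyadenylated RNA of 2 WT and 2 KO HEK293 libraries was measured. The submitters' processing notes name FastQC, Trimmomatic, STAR, HTSeq and DESeq2 with hg38. Versions, annotation release, strand setting and read filters: not given in the sources used here. The authors deposited raw counts per gene, without normalization. The second table the authors deposited holds, per the file headers, base means (a signal scaled by size factors), log2 fold changes with SE, Wald scores, p-values and adjusted p-values.

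Counts were tested with edgeR 4.0.16 in R 4.3.3 (filterByExpr with a minimum count of 10, TMM, robust quasi-likelihood, genotype as the only term, Benjamini-Hochberg adjustment over all 10670 genes tested, threshold 0.05). The procedure was tested on simulated data. Genes under the filter take their fold change from the same fit without it. Gene positions, types and merged exon lengths came from GENCODE 29, which placed 57288 of 78686 genes. Count ratios have exact binomial intervals (95%) and shares have Clopper-Pearson intervals. They cover counting error only, and a count of 0 was given a floor of 3 counts. With 2 libraries a group, an exact two-sided permutation test cannot go below 0.333, so none is given. Replicate libraries differed by more than sampling noise (chi-square per degree of freedom 5.01 and 5.38).

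The members and gene lists were chosen with earlier results of these data known. Besides the members and HEMK1, the text names the gene with the smallest p in each list, the 3 with the smallest p within 500 kb and the 5 nearest patterns. The paired genes named for overlap, the antisense gene with the smallest p and the genes named in the closing section were chosen after their values were seen. Alternatives were DESeq2 1.42.0 and its size factors, library totals, no filter, a replicate block, other windows and overlaps, and leaving out each library.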

Additional observations from a re-analysis of the deposited data

How the results depend on the processing

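The antisense transcript kept a KO over WT count ratio between 0.0205 and 0.0633 when each library was left out, the last being a bound at the floor of 3 counts. The transcript was chosen for this difference in the same libraries, so the low ratio adds no support. Its share in the pair with NEK8 ranged from 81.0% to 93.6% in WT and from 0 to 33.3% in KO; without KO replicate 1 the KO share was 0%. Of the 8 neighbours, 0 were called under any of 9 alternatives, and calls within 500 kb and in the 9 lists also stayed at 0. NEK8, TRAF4 and DHRS13 were tested only in the alternative without the filter and could not be called in the others. The sign was opposite under 2 alternatives for FLOT2, 1 for NEK8 (range -1.28 to 0.27) and 1 for SDF2. TLCD1, TRAF4, SUPT6H, ERAL1 and DHRS13 kept theirs. Leaving out single libraries moved the median of the 8 neighbours between -0.17 and 0.067 and that of the 22 tested genes within 500 kb between -0.12 and 0.10.

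Over all genes, 31 were higher and 125 lower without the filter, 29 and 111 with a replicate block, and 1 to 25 higher and 3 to 164 lower when single libraries were left out. The cause was not tested. Same-numbered libraries did not deviate together across the tested genes (correlation -0.04). This 1 value cannot show whether they shared a culture or preparation. DESeq2 called 4 higher and 40 lower. Of the antisense class, 1 was higher without the filter and 1 with the replicate block, and 0 to 1 higher and 0 to 5 lower were called without single libraries. The counts of NEK8, TRAF4 and DHRS13 limit what can be said of them.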

Other observations

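AP003064.1, an antisense gene inside exons of ASRGL1, had the largest rise in share among the 120 other pairs. It held 9.41% of the pair's counts in WT and 42.3% in KO. AP003064.1 had 4 and 4 counts in WT and 14 and 19 in KO. These 41 counts just passed the limit of 40, and did so through the KO libraries, where it was higher. ASRGL1, which encodes an asparaginase-like enzyme, had 44 and 33 in WT and 31 and 14 in KO. The largest fall was that of the pseudogene TMSB4XP6 inside BCAS4, from 52.3% in WT to 34.0% in KO. TMSB4XP6 had 28 and 17 counts in WT and 6 and 12 in KO. It passed the limit mostly through the WT libraries, where it was higher. As with the processed pseudogenes named above, its counts may be shared with near-identical copies.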
